A study of Canis lupus familiaris with 6 samples.

Results

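TP63, KLF4, KLF5, GRHL1, GRHL2, GRHL3, OVOL1, TFAP2A and SOX9 encode 9 transcription factors that set the identity of epidermal keratinocytes and their differentiation. They were taken by gene symbol from the gene-level table, where these are 9 of 35993 genes, and all 9 were among the 14708 genes that passed the filter on low counts. Both groups held CPEK cells, a wild-type canine epidermal keratinocyte line grown in medium with fetal bovine serum. The dCAMP group (3 libraries) was exposed directly to cold atmospheric microwave plasma (CAMP), an ionized gas kept at low temperature, for 30 s, and the gas control group (3 libraries) received the gas without plasma. In both groups the medium was replaced after 15 min, and total RNA was collected after a further 24 h. The RNA-Seq of this line, for which the methods describe no wound, addressed which genes respond to the plasma in keratinocytes studied for wound healing. The labels do not say whether the libraries of a group came from separate cultures, so p-values measure the spread between these libraries, which may be technical.

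In the epidermis, basal cells attached to the basement membrane divide, and their daughters leave the basal layer, stop dividing and assemble the cornified envelope, the protein and lipid shell of the outermost layer. p63, the product of TP63, maintains the basal state and is needed for stratified epithelia to form. Activator protein 2 alpha, encoded by TFAP2A, acts with p63 on keratin genes. The grainyhead-like factors GRHL1, GRHL2 and GRHL3 control cell junctions and the skin barrier, and GRHL3 is also known for its part in wound closure. KLF5 is a Krüppel-like factor of dividing basal cells, whereas KLF4, of the same family, drives barrier formation, and the zinc finger repressor OVOL1 promotes exit from the cell cycle. SOX9 marks hair follicle stem cells and outer root sheath and is also found in keratinocytes in culture.

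For none of the 9 genes did the difference between dCAMP-treated and gas-treated cells pass the test. With edgeR's quasi-likelihood test and Benjamini-Hochberg adjustment, which gave all adjusted p-values below unless another test is named, 0 of 9 had an adjusted p under 0.05, and 0 of 14708 genes (0%) did. At an unadjusted p under 0.05 the counts were 0 of 9 factors and 3040 genes, 20.7% of those tested (6.81% higher and 13.9% lower in dCAMP). DESeq2, a second count test, called 0 of 9 factors and 301 of 11627 genes (2.59%) at an adjusted p under 0.05. At that threshold a fit with library quality weights (voom, below) called 5 of 9 factors and 60.8% of all genes. The edgeR fit without gas library 3 called 2 of 9 and 33.1%. A rule that asks for both an unadjusted p under 0.05 and at least a 2-fold change called 0 of 9 factors and 161 genes (1.09%). Log2 fold changes of dCAMP against gas lay above 0 for 5 factors (KLF5, TP63, KLF4, GRHL1 and TFAP2A) and below 0 for 4 (SOX9, GRHL2, GRHL3 and OVOL1), where 52.4% of all genes tested lay above 0. Their median was 0.06, beside 0.03 over all genes tested. For all 9 the 95% confidence interval of the log2 fold change lay within a 2-fold change in either direction. In bulk RNA, fewer cells of a type and less RNA per cell cannot be told apart.

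**Figure D1:**
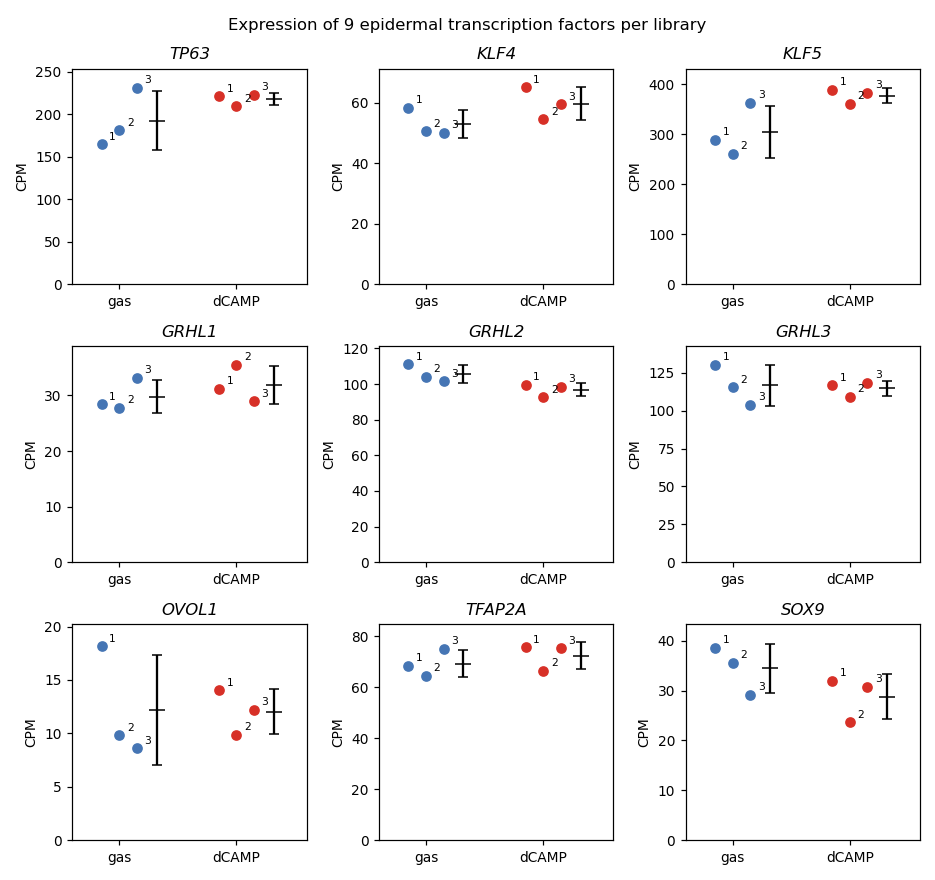
CPM (read counts scaled to library size, vertical axes from 0) of the 9 transcription factors in the gas and dCAMP libraries. Numbered points are libraries and black marks are means with SD (n = 3 per group). For 8 of the 9 factors the groups overlap, and GRHL2 is the exception, with all dCAMP libraries below all gas libraries.

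The libraries of the gas group stood apart from each other. Gene counts summed to 43084921 in the smallest library (dCAMP library 2) and to 54082634 in the largest (gas library 3). On the first principal component of log2 CPM the gas libraries 1, 2 and 3 lay at −94.1, −23.0 and 21.7, and the dCAMP libraries lay between 28.6 and 33.6. Gas library 3 was thus nearer to the dCAMP libraries than to gas library 1. Compared with the mean of the dCAMP libraries, 20.8% of the genes tested were more than 2-fold away in gas library 1, 5.76% in gas library 2 and 1.55% in gas library 3. The dCAMP libraries had 0.388% to 0.53%, but each is part of that mean and so lies nearer to it by construction. Transcript length moved with these differences. The longest 10% of genes (at least 5990 bases) had a median log2 ratio to the dCAMP mean of −0.34, −0.24 and −0.03 in gas libraries 1, 2 and 3, and the shortest 10% (at most 927 bases) had 0.17, 0.11 and 0.01. The mean transcript lengths of the 9 factors ranged from 1518 bases for SOX9 to 4786 bases for GRHL2, so values with a library left out are plotted for all 9, and the larger shifts from these and from a correction for gene length are given below.

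In the gas libraries the 9 factors lay, at the median, nearer to the dCAMP mean than the genes tested as a whole. Their median absolute log2 ratio to that mean was 0.20, 0.24 and 0.07 in gas libraries 1, 2 and 3, and that of all genes tested was 0.47, 0.28 and 0.13. Individual factors went in different directions in the same library. In gas library 1 the log2 ratio ranged from −0.41 for TP63 to 0.59 for OVOL1, in gas library 2 from −0.53 for KLF5 to 0.31 for SOX9, and in gas library 3 from −0.48 for OVOL1 to 0.09 for TP63. Within the gas group, the log2 range between the lowest and the highest library had a median of 0.33 over the 9 factors and 0.46 over all genes tested. Within the dCAMP group these ranges were 0.19 and 0.16.

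**Figure D2:**
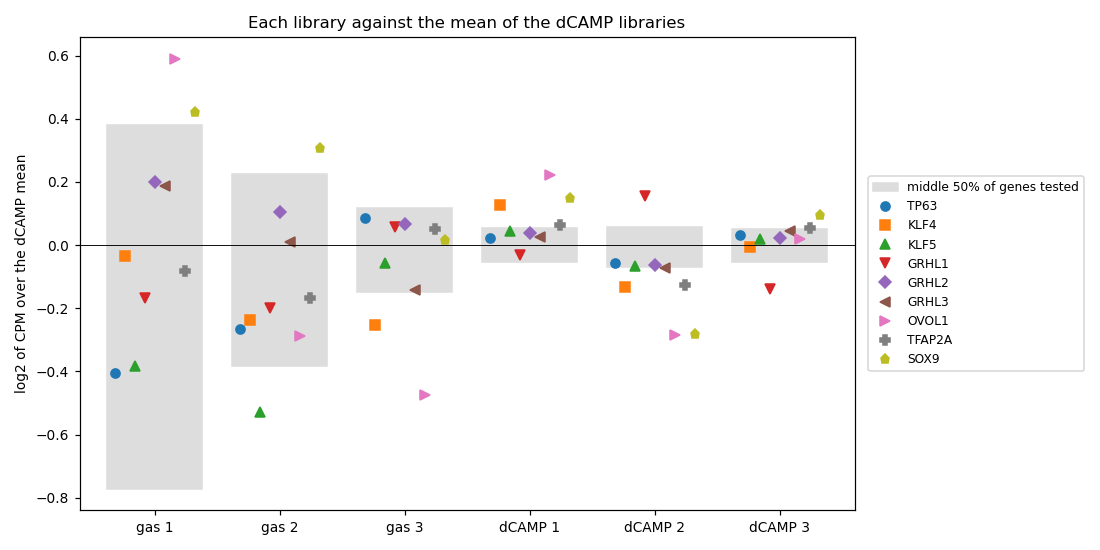
Log2 ratio of each library's CPM to the mean of the dCAMP libraries (vertical axis) for the 9 factors (coloured symbols), with the middle 50% of all genes tested as grey boxes. The boxes narrow from gas library 1 (−0.77 to 0.38) to gas library 3 (−0.15 to 0.12), and OVOL1 is the highest factor in gas library 1 and the lowest in gas library 3.

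Levels were compared between genes as FPKM, which is scaled to transcript length. KLF5 was the most abundant of the 9 factors in both groups, with 92.7 ± 13.4 FPKM in gas and 114 ± 4.18 FPKM in dCAMP (SD, n = 3), which placed it at the 95.2 percentile of the genes tested. TP63 followed with 40.2 ± 6.68 and 45.7 ± 1.39 FPKM. GRHL3 came next with 37.7 ± 5.06 and 37.0 ± 1.46 FPKM. The ranges of TP63 and GRHL3 overlapped in gas and were separate in dCAMP. A middle group held TFAP2A, SOX9, GRHL2 and KLF4, with gas means of 21.6, 20.0, 19.4 and 17.4 FPKM, and here each neighbour's range overlapped the next. In dCAMP the same 4 genes stood in the order TFAP2A, KLF4, GRHL2 and SOX9, with means of 21.7, 19.5, 17.8 and 16.7 FPKM, and neighbours overlapped again. GRHL1 (8.11 ± 0.787 in gas and 9.02 ± 0.428 FPKM in dCAMP) and OVOL1 (5.18 ± 2.31 and 5.06 ± 0.853 FPKM) were the least abundant, at the 55.0 and 44.2 percentiles, and their ranges overlapped in gas only. KLF5 was thus read at a higher level than KLF4, its family member of differentiating cells, in all 6 libraries.

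TP63 (gene ID 488125, CanFam3.1 chr34:21766861-21985095) had 164, 181 and 231 CPM in the gas libraries and 221, 209 and 223 CPM in the dCAMP libraries. Gas libraries 1 and 2 lay below every dCAMP library, while gas library 3 was the highest of all 6, so the groups overlapped. The mean was 192 ± 34.7 CPM in gas and 218 ± 7.29 CPM in dCAMP (SD, n = 3), a log2 fold change of 0.18 (SE 0.14, 95% confidence interval −0.15 to 0.51, adjusted p = 0.394). The call depended on gas library 3 and on the model (voom, below). Without gas library 3 the log2 fold change of TP63 was 0.29 with an adjusted p of 0.0395 (edgeR), in a fit that called 4953 of 14975 genes (33.1%, with 15% higher and 18.1% lower) and 2 of the 9 factors. Without gas library 1 it was 0.06, in a fit that called 0 of the 9 factors and 1 gene in all (0.00667%), which was higher. After the correction for gene length it was 0.03.

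TFAP2A (488213, chr35:10157043-10180484) showed little spread, with 68.5, 64.5 and 75.1 CPM in gas and 75.7, 66.4 and 75.3 CPM in dCAMP. The lowest and highest libraries of both groups were almost at the same values. The log2 fold change was 0.06 (SE 0.10, interval −0.19 to 0.31, adjusted p = 0.684). It was −0.01 without gas library 2, −0.02 after the length correction and 0.18 with voom, which called it (below). TFAP2A shares 2335 bases with LOC111090016, which had 15 to 36 counts per library, and how reads in the shared stretch were counted is not given in the sources used here.

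KLF5 (612788, chr22:27163179-27185241) had the largest absolute fold change of the 9 in the main fit. It had 289.6, 262 and 363 CPM in gas and 389.5, 361 and 383 CPM in dCAMP. Gas libraries 1 and 2 were below every dCAMP library, and gas library 3 was just above the lowest of them. The means were 305 ± 52.2 and 378 ± 15.1 CPM (SD, n = 3), a fold change of 1.24 and a log2 fold change of 0.31 (SE 0.13, interval −0.01 to 0.63, unadjusted p = 0.0538 and adjusted p = 0.243 by edgeR), which ranked 3249 of 14708 genes by p. On the FPKM scale the groups did not overlap, with 88.8, 81.6 and 108 FPKM in gas and 117, 109 and 116 FPKM in dCAMP. GRHL2 did not overlap on that scale either, with dCAMP lower. The share of all genes was not computed in FPKM, and in CPM 19% of genes tested had all dCAMP libraries higher. Without gas library 3 the log2 fold change of KLF5 was 0.41 (adjusted p = 0.024 by edgeR), without gas library 2 it was 0.19, and after the length correction it was 0.23. In some fits another factor had the larger absolute value. Among these were SOX9 with upper-quartile scaling (−0.355), GRHL2 after the length correction (−0.326) and OVOL1 without gas library 1 (0.363).

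KLF4 (481657, chr11:62881840-62886676) had 58.3, 50.6 and 50.1 CPM in gas and 65.2, 54.5 and 59.5 CPM in dCAMP. Here gas library 1 was the highest of its group and lay between the dCAMP libraries, unlike TP63 and KLF5, which lay below every dCAMP library there. The means were 53.0 ± 4.61 and 59.7 ± 5.34 CPM (SD, n = 3), with a log2 fold change of 0.17 (SE 0.11, interval −0.10 to 0.45, adjusted p = 0.347). It was 0.09 without gas library 3, 0.11 after the length correction and 0.08 with upper-quartile scaling of the libraries.

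OVOL1 (483727, chr18:51454170-51465189) was the factor that varied most between libraries. Its counts per library began at 422, the lowest of the 9 factors, and its values were 18.15, 9.82 and 8.62 CPM in gas and 14.0, 9.84 and 12.2 CPM in dCAMP. Gas library 1 had more than all others, and gas library 3 had less. The means were almost equal, 12.2 ± 5.19 and 12.0 ± 2.097 CPM (SD, n = 3), and the log2 fold change was −0.02 with the widest interval of the 9 (SE 0.31, −0.76 to 0.72, adjusted p = 0.969). Its sign depended on the libraries used, since leaving out gas library 1 gave 0.36 and leaving out gas library 3 gave −0.27. Leaving out dCAMP library 2 gave 0.07. The sign also depended on the model, with 0.31 from voom (below) on all 6 libraries.

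Of the grainyhead-like factors, GRHL2 (481985, chr13:3204898-3362533), which maintains epithelial junctions, had 111, 104 and 102 CPM in gas and 99.5, 92.7 and 98.4 CPM in dCAMP. It was the one factor of 9 (11.1%) whose groups did not overlap in CPM, where 5868 of all genes tested (39.9%, with 19% higher and 20.9% lower in dCAMP) had groups that did not overlap. The means were 106 ± 4.99 and 96.8 ± 3.64 CPM (SD, n = 3), and the log2 fold change was −0.12 (SE 0.08, interval −0.32 to 0.07, adjusted p = 0.346). It was −0.20 without gas library 3, −0.22 with upper-quartile scaling and −0.33 after the correction for gene length.

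GRHL3 (487371, chr2:75290594-75324593) had 130, 115 and 104 CPM in gas and 117, 109 and 118 CPM in dCAMP. The highest and the lowest value were both in the gas group. The log2 fold change was −0.02 (SE 0.11, interval −0.28 to 0.24, adjusted p = 0.888), and it became 0.05 when gas library 1 was left out and −0.15 when gas library 3 was. GRHL3 shares 76 bases with LOC111093520, which had 167 to 253 counts per library.

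GRHL1 (475664, chr17:6953945-7007175), which acts on desmosomal genes, had 28.4, 27.8 and 33.2 CPM in gas and 31.2, 35.5 and 28.9 CPM in dCAMP. The groups overlapped over most of their range. The log2 fold change was 0.10 (SE 0.13, interval −0.21 to 0.41, adjusted p = 0.61), and it was 0.05 without gas library 1, −0.02 without dCAMP library 2 and 0.00 after the length correction.

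SOX9 (403464, chr9:8275049-8278172) had 38.6, 35.6 and 29.1 CPM in gas and 31.96, 23.7 and 30.8 CPM in dCAMP. Gas libraries 1 and 2 were above every dCAMP library, and gas library 3 was within the dCAMP range. The means were 34.5 ± 4.85 and 28.8 ± 4.49 CPM (SD, n = 3), and in the main fit SOX9 had the lowest log2 fold change of the 9, −0.26 (SE 0.17, interval −0.66 to 0.14, adjusted p = 0.338). It was −0.41 without gas library 3 (adjusted p = 0.0883), −0.19 without gas library 1 and −0.17 without dCAMP library 2.

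**Figure D3:**
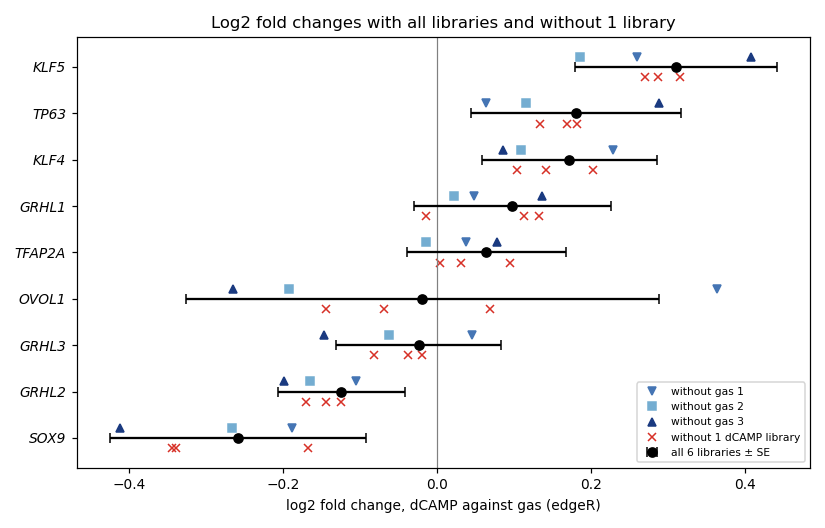
Log2 fold change of dCAMP against gas (horizontal axis) with all 6 libraries (black points with SE) and with 1 library left out (blue symbols for gas, red crosses for dCAMP). KLF5, TP63 and KLF4 stay above 0 and SOX9 and GRHL2 below 0 whichever library is left out, and OVOL1 ranges from −0.27 to 0.36.

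A fit that gives each library a weight by its quality (voom with limma) called 8944 of 14708 genes (60.8%, with 32.6% higher and 28.2% lower) and 5 of the 9 factors at an adjusted p under 0.05. These were TP63 (log2 fold change 0.27), KLF4 (0.25), KLF5 (0.52) and TFAP2A (0.18) on the higher side and SOX9 (−0.27) on the lower side. GRHL1, GRHL2, GRHL3 and OVOL1 were not called by it.

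Some pairs of factors varied together over the libraries. The highest values of Pearson's r of log2 CPM over the 6 libraries were 0.93 between GRHL2 and SOX9, 0.93 between GRHL3 and OVOL1 and 0.88 between TP63 and KLF5, and the lowest was −0.90 between GRHL1 and SOX9. SOX9 also had r = 0.75 with GRHL3. These are descriptions over 6 points that share the wide spread of the gas libraries. The genes with the pattern most like that of TP63 were SP1 (r = 0.998), CCDC146 and UBXN8 (both with r above 0.99), and 614 genes tested had r above 0.95. SP1, a general activator that binds GC-rich promoters, had 82.4, 88.8 and 106 CPM in gas and 104, 99.7 and 104 CPM in dCAMP. The genes most like KLF5 were LOC106559491 (r = 0.998), NHS (0.998) and LOC102156038 (0.997), with 136 genes above 0.95.

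OVOL1 shared its pattern over the libraries with GRHL3 and with many genes of late differentiation. Of 22 differentiation genes tested other than OVOL1, 13 (59.1%) had r above 0.9 with OVOL1 over the 6 libraries, where 240 of 14707 genes tested (1.63%) did. The relation was examined after the values of OVOL1 had been seen. Without gas library 1 the counts were 7 of 22 (31.8%) and 334 genes (2.27%). The 13 genes included KRTDAP (r = 0.979), SBSN (0.965), IVL (0.956), TGM1 (0.953) and PPL (0.952), which encode secreted or envelope proteins of the upper epidermis and, with TGM1, the transglutaminase that crosslinks them. Without gas library 1, KRTDAP (0.982), SBSN (0.934) and IVL (0.946) were still above 0.9, and TGM1 (0.88), PPL (0.877) and GRHL3 (0.81) were below it. IVL, the envelope protein involucrin, had 1439, 917 and 637 CPM in gas and 1206, 856 and 1082 CPM in dCAMP, with gas library 1 the highest and gas library 3 the lowest, as for OVOL1. KRTDAP had 84.7, 39.7 and 26.8 CPM in gas and 64.7, 35.5 and 55.5 CPM in dCAMP, in the same order at both ends. Other genes of the list did not follow OVOL1, with r of 0.025 for SPINK5, −0.139 for CASP14, −0.234 for ABCA12, −0.308 for DSG1 and −0.879 for KRT10. Gas library 1 set several of these values, since without it r was 0.977 for SPINK5, 0.89 for CASP14, 0.769 for ABCA12, 0.679 for DSG1 and −0.755 for KRT10. Neither IVL nor KRTDAP passed the test between the groups (log2 fold changes of 0.07 and 0.04, adjusted p = 0.882 and 0.953). Their direction depended on the control libraries, with 0.41 and 0.62 when gas library 1 was left out and −0.22 and −0.31 when gas library 3 was.

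The transcript-level table lists 32 variants of the 9 genes, of which 5 had 0 counts in every library. Of the 24 that passed the filter, 0 had an unadjusted p under 0.05, where 2653 of 30886 transcripts (8.59%) did. KLF4, OVOL1 and SOX9 have 1 variant each. KLF5 was read almost wholly as variant X1 (94.6% to 98.4% of its counts per library) and GRHL3 as variant X4 (95.7% to 99.9%).

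TP63 is known for a distal promoter that gives the TAp63 forms and an internal promoter that gives the ΔNp63 forms of basal keratinocytes, names that the table does not use. Variants X1, X2 and X7 start at the distal position 21766861, and variants X5 and X6 start 116686 bases or more further along the gene, at 21883547 and 21884124. X5 alone held 82.9%, 80.2% and 81.6% of the TP63 counts in gas and 88.6%, 78.2% and 81.4% in dCAMP, and variants X2, X3 and X4 had 0 counts. X5 and X6 together held 91.2%, 91.6% and 91.9% in gas and 92.2%, 92.4% and 92.5% in dCAMP. TP63 was thus read mainly from variants with the internal start in all 6 libraries. The dCAMP libraries were all above the gas libraries, with means of 92.4 ± 0.19% and 91.6 ± 0.33% (SD, n = 3), a difference of 0.783 percentage points. An exact two-sided permutation test gave p = 0.1, the smallest that 3 against 3 libraries allow. The share in gas libraries 1, 2 and 3 stood in the same order as their distance from the dCAMP libraries on the first principal component and in the ratio of long genes, and the part of that difference between libraries in the result was not tested. The distal-start variants had 668, 797 and 995 counts in gas and 804, 679 and 754 counts in dCAMP.

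The variants of GRHL1 split very differently between libraries of the same group. Similar splits recurred in dCAMP libraries 1 and 3, and in gas library 3 and dCAMP library 2. X1 held 85.9%, 24.6% and 95.7% of the counts in gas and 0%, 93.2% and 0% in dCAMP, and X2 held 14.1%, 69.5% and 1.36% in gas and 67.9%, 4.14% and 65.2% in dCAMP. X3 took the rest in dCAMP libraries 1 and 3, with 32.1% and 34.8%. The order of these shares did not follow the groups, although the gene total of GRHL1 stayed between 27.8 and 35.5 CPM in the 6 libraries. X1, X2 and X3 lie over the same locus, and it was not tested whether this split lies in the cells or in how reads were divided among variants. GRHL2 was mainly variant X3 (76.2% to 92.1%) with X2 next (7.49% to 23.4%). TFAP2A was spread over X1 (27.2% to 38.4%), X2 (18.6% to 47.8%), X3 (13.3% to 26.4%), X4 (3.15% to 17.2%) and X5 (1.94% to 8.23%), and its groups overlapped for each of the 5.

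**Figure D4:**
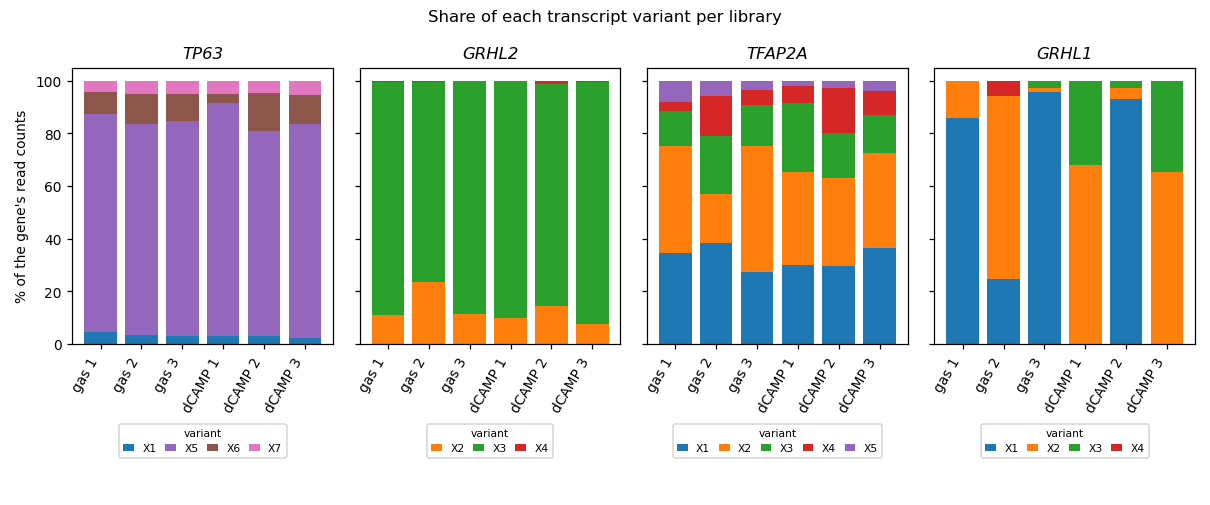
Share of each gene's read counts (vertical axis, %) held by its transcript variants (colours) in the 6 libraries, for TP63, GRHL2, TFAP2A and GRHL1. TP63 is mainly X5 in every library, whereas the leading variant of GRHL1 changes between libraries of the same group.

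The genes around these factors had values above and below 0 in each list. Of 32 other epidermal regulators tested, 16 had a log2 fold change above 0 and 16 below it (median 0.00, beside 0.03 over all genes), 0 had an adjusted p under 0.05, and 4 had an unadjusted p under 0.05 (KLF3, KLF6 and PRDM1 higher, ELF3 lower), 12.5% beside 20.7% of all genes. RORA, a nuclear receptor, had the largest value with 0.576 ± 0.346 CPM in gas and 1.24 ± 0.421 CPM in dCAMP (log2 fold change 1.04, adjusted p = 0.258, and 0.67 with gas library 1 left out). TFAP2B, of the same family as TFAP2A, came next at 0.67 (adjusted p = 0.276), with 12, 20 and 19 counts in gas and 32, 14 and 29 counts in dCAMP. CEBPB, a factor of suprabasal cells, had the lowest with 26.2 ± 7.31 and 18.3 ± 1.53 CPM (−0.52, adjusted p = 0.243), and ELF3 had −0.44 (adjusted p = 0.237, and −0.28 with gas library 1 left out). Without gas library 3, 2 of these regulators were called higher (15% of all genes were) and 4 lower (18.1% of all genes were). ELF3 (−0.60, adjusted p = 0.0424) and CEBPB (−0.76, adjusted p = 0.0219) were among the latter, and CEBPB was at −0.34 with gas library 1 left out.

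Of 22 basal genes known as p63 targets, 12 were above 0 and 10 below it (median 0.03), and 0 had an adjusted p under 0.05 (DESeq2 called 1, where it called 2.59% of all genes). At an unadjusted p under 0.05 there were 7 of 22, 31.8% beside 20.7% of all genes, with ITGA6, DSG3 and PERP higher and SFN, ITGA3, KRT14 and KRT5 lower. The groups did not overlap for 8 of these genes on the higher side (19% of all genes) and 5 on the lower side (20.9%). Without gas library 3, 6 were called higher (15% of all genes were) and 8 lower (18.1%). DST (log2 fold change 0.84, adjusted p = 0.243) and ITGB1 (0.64, adjusted p = 0.305), both of the attachment to the basement membrane, had the largest values, and SFN (−0.43) and ITGA3 (−0.34) the lowest, with adjusted p = 0.221 for both. DST had 394 ± 192 CPM in gas and 706 ± 8.44 CPM in dCAMP, and so its gas libraries spread far more than those of TP63. Without gas library 1 DST was at 0.51 and ITGB1 at 0.29, and without gas library 3 they were at 1.21 and 0.97. Of 15 epithelial genes known as GRHL targets, 7 were above 0 and 8 below it (median −0.04, or 0.03 with gas library 1 left out and −0.28 with gas library 3 left out), and 2 had an unadjusted p under 0.05 (ST14 and ESRP2, both lower, 13.3%, where 13.9% of all genes were lower). CLDN1 (0.66, adjusted p = 0.279) and EPCAM (0.59, adjusted p = 0.305) led on one side and CLDN3 (−0.61, adjusted p = 0.272) and ST14 (−0.33, adjusted p = 0.229), the protease matriptase, on the other. CLDN3 was read at a low level, with 19, 18 and 20 counts in gas and 7, 13 and 11 counts in dCAMP. CLDN1 and EPCAM were at 0.34 and 0.27 without gas library 1 and at 0.99 and 0.90 without gas library 3. In that fit 1 gene of the list was called higher (CLDN1, adjusted p = 0.037, where 15% of all genes were higher) and 3 lower (ST14, ESRP2 and RAB25, where 18.1% were).

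Of 23 differentiation genes, a list that also holds GRHL3 and OVOL1, 13 were above 0 and 10 below it (median 0.01), and 3 had an unadjusted p under 0.05, all higher (DSG1, ABCA12 and SPINK5, 13%, where 6.81% of all genes were higher and 20.7% passed in either direction). DESeq2 called 2 genes of this list at an adjusted p under 0.05, where it called 2.59% of all genes. DSG1, a desmosomal cadherin and known target of GRHL1, had 115, 159 and 223 CPM in gas and 346, 297 and 315 CPM in dCAMP, a log2 fold change of 0.95 (SE 0.23, adjusted p = 0.221). ABCA12, the lipid transporter of lamellar granules, had 0.88 (adjusted p = 0.221), while TGM3 and TGM1 had −0.39 and −0.21 (adjusted p = 0.699 and 0.766) and turned to 0.50 and 0.39 without gas library 1. With gas library 3 left out, 2 genes of this list were called higher (15% of all genes were), DSG1 (1.18, adjusted p = 0.0203) and ABCA12 (1.03, adjusted p = 0.0208), and 0 lower. The median of this list followed the control libraries, which gave 0.40 when gas library 1 was left out and −0.22 when gas library 3 was. Of 4 mesenchymal factors tested, which OVOL and GRHL proteins are known to oppose, 2 were above 0 (PRRX1 at 0.57, adjusted p = 0.226, and SNAI1 at 0.08) and 2 below it (SNAI2 at −0.04 and FOXC2 at −0.02). PRRX1, a homeobox factor, was the 1 of 4 (25%) with an unadjusted p under 0.05 (0.0308), where 6.81% of all genes were higher. Its groups did not overlap, with dCAMP higher, as was so for 19% of all genes tested. The median of these 4 was 0.03, and it became 0.20 with gas library 1 left out, where all 4 were above 0, and −0.15 with gas library 3 left out, where PRRX1 alone was (0.75, adjusted p = 0.0217). PRRX1 was at 0.37 with gas library 1 left out. ZEB1, ZEB2 and TWIST2 had 0 counts in all 6 libraries.

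**Figure D5:**
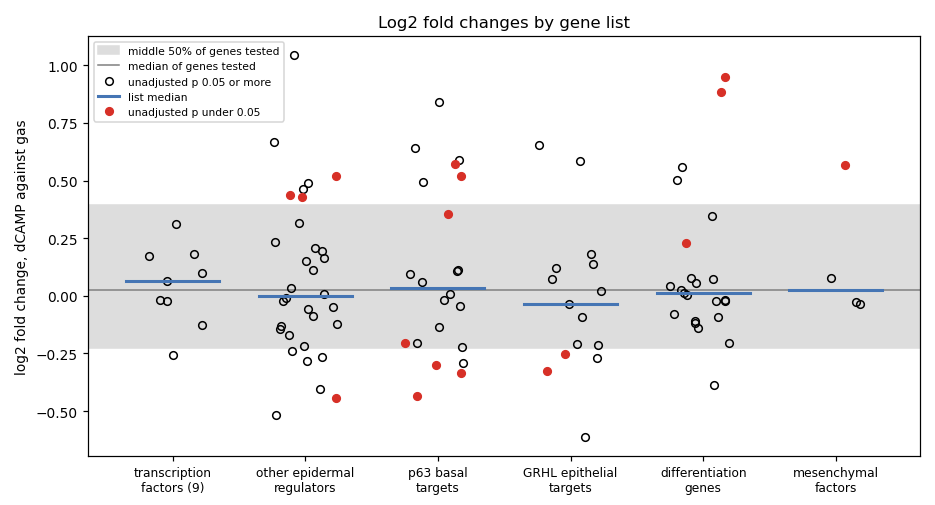
Log2 fold change of dCAMP against gas (vertical axis) of each gene in the 9 factors and 5 related lists, with bars at list medians, filled red points for an unadjusted p under 0.05, and the middle 50% of all genes tested in grey (−0.23 to 0.39). The 9 factors lie between −0.26 and 0.31 with no red point, and RORA at 1.04 is the highest of the other regulators.

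The cells carried the markers of keratinocytes that their label gives. All 12 keratinocyte markers were read in every library, and their summed level was 30820, 28060 and 23780 FPKM in gas and 24150, 23970 and 22760 FPKM in dCAMP, with KRT5 the most abundant. Fibroblast markers summed to 0.839 to 0.972 FPKM with DCN, LUM, PDGFRB and TWIST2 at 0, and melanocyte markers to 1.61 to 2.55 FPKM with TYR, TYRP1, DCT and KIT at 0. Immune markers summed to 1.36 to 2.34 FPKM with PTPRC and CD3E at 0. Endothelial markers summed to 2.31, 2.39 and 2.01 FPKM in gas and 3.04, 2.53 and 3.13 FPKM in dCAMP, with VWF the most abundant and PECAM1 at 0. KRT1, the partner of KRT10, had 0 counts in all 6 libraries.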

How the data were processed

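Total RNA of 6 CPEK samples was sequenced as stranded mRNA libraries. According to the labels and methods, trimming was followed by HISAT2 2.1.0 against CanFam3.1, and the authors obtained values for known transcripts with StringTie 2.1.3b. Read counts were deposited unnormalized, as integers, in a gene-level and a transcript-level table. FPKM values in the same deposited tables were scaled by the authors to transcript length and mapped reads, and the deposited TPM columns (6 per table) were not used. The deposited transcript length, a number of bases, served for the length correction. The annotation release, strand setting and counting of overlapping genes are not given in the sources used here.

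Counts were tested with edgeR 4.0.16 (TMM, filterByExpr, quasi-likelihood, prior count 2, Benjamini-Hochberg over 14708 genes) in R 4.3.3, with limma 3.58.1 and DESeq2 1.42.0 as alternatives, and the steps were tested on simulated data. CPM values are TMM-scaled. DESeq2 gave no adjusted p for genes it filtered. Confidence intervals used the quasi-likelihood degrees of freedom. A variant was taken as internal-start where it began within 1000 bases of the last start.

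The members and lists were chosen with earlier results of these data known. Named in the text are all 9 factors, the 2 genes with the largest and the 2 with the smallest log2 fold change of each list, the most abundant gene of each marker list, the 3 genes most like TP63 and KLF5, and per factor the leading variant and any with 10% of its counts. Genes beyond this rule (those with an unadjusted p under 0.05, those at 0 counts, and RAB25, IVL, KRTDAP, SBSN, PPL, CASP14 and KRT10) were chosen after their values were seen.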

Additional observations from a re-analysis of the deposited data

How the results depend on the processing

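Over 162 alternative values of the 9 log2 fold changes, 139 kept direction and side of the threshold, 16 reversed and 7 passed it. TP63, KLF4, KLF5, GRHL2 and SOX9 never reversed. TFAP2A reversed to −0.021 with upper-quartile scaling, −0.019 with the length correction and −0.019 with length correction and replicate block. OVOL1 reversed to 0.042 with the replicate block, 0.309 with voom, 0.024 and 0.038 on log2 FPKM with pseudocounts of 1 and 0.1, and 0.047 with length correction and block. GRHL3 reversed to 0.001 with voom, and GRHL1 to −0.003 with the length correction and −0.007 with the block added. Leaving out 1 library gave −0.147 to 0.045 for GRHL3, −0.265 to 0.363 for OVOL1, −0.014 to 0.094 for TFAP2A and −0.015 to 0.136 for GRHL1. Of the 9 factors, 0 were called by adjusted p, against 5 with voom and 0 to 2 with 1 library left out, and their median of 0.064 became 0.177 with voom and −0.014 to 0.078 with 1 library left out. This median turned to −0.021 with upper-quartile scaling, −0.019 with the length correction and −0.007 with length correction and block. The count of 0 factors at an unadjusted p under 0.05 also changed. KLF5 passed with the replicate block and on log2 FPKM with both pseudocounts, and GRHL2 passed with the length correction. Beside the factors called there by adjusted p, SOX9 passed without gas library 3, and GRHL2 and OVOL1 passed with voom. The share of all genes at that threshold was not computed for these fits, and in the main edgeR fit it was 20.7%. These passes are therefore not read as results about the factors. Other regulators called were 0, against 20 with voom and 0 to 6 with 1 library left out. Of all genes, 0 were called by adjusted p, against 301 with DESeq2, 161 with DESeq2 on genes with a count in every library, 8944 with voom, 3 on log2 FPKM with a pseudocount of 0.1, and 0 to 4953 with 1 library left out (4953 without gas library 3 and 1 without gas library 1). By fold and p, 161 became 369 and 327 with both DESeq2 fits, 279 without a filter, 1010 with voom, 373 on log2 FPKM with a pseudocount of 0.1, 471 with length correction and block, and 135 to 1523 with 1 library left out. With the replicate number as a block, 435 were called by fold and p and 0 by adjusted p. Same-numbered libraries deviated together with r of 0.130, 0.024 and 0.048, so the numbers were not taken as pairs. The internal-start difference of TP63 ranged from 0.604 to 0.933 points with 1 library left out, and it was 0.542 points as a share of summed transcript FPKM. The cause of these changes was not tested. Each factor had at least 422 counts per library, and which limit weighs more, depth or the number of libraries, was not compared.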

Other observations

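Some markers of other cell types were read at low levels. VWF had 566 to 842 counts per library, MITF 231 to 445, KDR 158 to 277, COL3A1 161 to 201 and ITGAM 151 to 208. Lower still were COL1A1 with 26 to 83 counts, COL1A2 with 18 to 32 and CDH5 with 18 to 40. PMEL had 13 to 39 counts, CD14 had 21 to 75 and CD68 had 26 to 82. MITF was the most abundant melanocyte marker (6.22 ± 1.88 CPM in gas and 8.67 ± 0.421 CPM in dCAMP, log2 fold change 0.48, adjusted p = 0.257 by edgeR). MLANA, the melanocyte antigen melan-A, had 4, 0 and 0 counts in gas and 13, 16 and 11 counts in dCAMP. Its log2 fold change was 2.30 (unadjusted p = 0.0102 and adjusted p = 0.221 by edgeR). It thus passed the rule of fold and unadjusted p, as 1.09% of all genes did. PMEL had a log2 fold change of −0.62 (adjusted p = 0.303). SOX10 had 63, 73 and 0 counts in gas and 0, 0 and 72 counts in dCAMP, and its log2 fold change of −0.73 (adjusted p = 0.768) became −0.38 with gas library 1 left out and −1.34 with gas library 3 left out. COL3A1 was the most abundant fibroblast marker (3.68 ± 0.145 and 4.12 ± 0.348 CPM, adjusted p = 0.397), with COL1A2 at 0.54 and COL1A1 at −0.68 on the log2 scale (adjusted p = 0.282 and 0.239). VWF, KDR and CDH5 had 0.30, 0.45 and 0.69 (adjusted p = 0.291, 0.224 and 0.237), and ITGAM, CD14 and CD68 had 0.38, 0.36 and −0.16 (adjusted p = 0.23, 0.564 and 0.831). Without gas library 3 VWF was at 0.17 and ITGAM at 0.23. CD14 was at 0.05 without gas library 1 and at 0.58 without gas library 3, and CD68 was at 0.24 and −0.56. Of the keratinocyte markers, PERP and DSG3 had the largest log2 fold changes (0.57 and 0.52) and SFN and KRT14 the lowest (−0.43 and −0.30), each with an adjusted p of 0.221.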
